A study of Mus musculus with 12 samples.

Results

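The complement components and regulators described here are 7 genes of 18194 named on the array, read by 15 of its 45101 probe sets. They were taken by symbol: every probe set annotated to C1s1, C1ra, Masp1, Serping1, Cfb, C2 or Cd55 alone was used, and for each gene the probe set with the highest mean over all 12 arrays leads. Each value below is a log2 expression value from an Affymetrix mouse genome array, on which 1 unit is a doubling. A further 1 probe set for C1ra with C1rb and 1 for Cd55 with Cd55b carry several symbols and were not used.

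Expression was measured in 4 groups of 3 arrays. In ST2 cells, a mesenchymal line from mouse bone marrow (strain label BC8), SRA overexpressing adipocytes infected with pMSCV-SRA, which carries a human cDNA of the non-coding RNA SRA, were compared with control adipocytes infected with the empty pMSCV vector. In 3T3-L1 cells, a mouse preadipocyte line (strain label Swiss albino), adipocytes with 1 hairpin against mouse SRA (shSRA) were compared with shControl adipocytes, which the sample titles call empty vector. All groups were differentiated with 0.5 mM IBMX, 1 µM dexamethasone, 0.167 µM insulin and 5 µM troglitazone (MDIT), and RNA was taken on day 4 from ST2 and on day 8 from 3T3-L1 adipocytes. The titles call the replicates biological but do not say whether they came from separate infections, so p-values measure the spread between these arrays. SRA was changed in infected cell populations before differentiation, and the second hairpin of the study was not on these arrays.

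Complement is a cascade of blood and tissue proteases that marks microbes and dead cells. In the classical pathway, C1q binds a target and the proteases C1r and C1s, which in the mouse are made from C1ra and C1s1 and their close copies, become active and cut C4 and C2. In the lectin pathway, collectins or ficolins do the binding and MASP proteases do the cutting. Factor B, from Cfb, supplies the protease of the alternative pathway, C1 inhibitor, from Serping1, blocks C1r, C1s and the MASPs, and CD55 breaks up the convertases on the cell's own surface. Most of these proteins are made by the liver, and adipose tissue and fibroblasts also make some of them. Interferons, IL-6 and TNF are known to raise the transcription of several of these genes.

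C1ra and C1s1 are neighbouring protein-coding genes on mouse chromosome 6, and Cfb and C2 are neighbours on chromosome 17. Masp1 lies on chromosome 16, Serping1 on chromosome 2 and Cd55 on chromosome 1. The RefSeq promoter table of build GRCm38.p6 held windows for 3 of the 7 genes, each running from 250 bases before to 50 bases after a transcription start. The windows of C1ra, on the plus strand at chr6:124512371-124512670, and C1s1, on the minus strand at chr6:124542310-124542609, are shown because these neighbours gave the largest falls with SRA overexpression among the 7 lead probe sets. Capitals mark matches to the motifs searched, and the start of transcription is base 251 of each window:
C1ra: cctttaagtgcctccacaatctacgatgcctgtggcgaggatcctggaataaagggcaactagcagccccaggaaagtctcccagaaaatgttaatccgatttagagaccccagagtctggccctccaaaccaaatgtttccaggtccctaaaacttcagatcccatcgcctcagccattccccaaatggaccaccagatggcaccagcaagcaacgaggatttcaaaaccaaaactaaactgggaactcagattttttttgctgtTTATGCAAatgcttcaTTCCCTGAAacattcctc
C1s1: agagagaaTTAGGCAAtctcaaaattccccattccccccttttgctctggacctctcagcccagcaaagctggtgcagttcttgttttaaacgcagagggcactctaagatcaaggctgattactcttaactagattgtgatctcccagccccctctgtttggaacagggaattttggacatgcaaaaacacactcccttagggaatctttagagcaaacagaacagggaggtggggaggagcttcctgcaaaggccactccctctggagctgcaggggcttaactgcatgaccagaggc
Matches were looked for on both strands to a STAT site (GAS, TTCNNNGAA), an interferon response core (GAAANNGAA), an NF-kB site (GGNNTTTCC) and a C/EBP site (TTGCNNAA). The C1ra window held 1 GAS match from base 283 and 1 C/EBP match from base 267, and they did not overlap. The C1s1 window held 1 C/EBP match from base 9. A second C1s1 window, which overlaps the first, and the Cd55 window held no match to any of the 4 motifs. Of 32851 promoter windows in the table, 8.3% held the GAS letters, 8.56% the interferon core, 5.82% the NF-kB letters and 10.8% the C/EBP letters, and a match is only a description of the sequence.

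Before the results, 3 checks of the arrays are given. Sra1, the mouse gene for SRA, read 9.46, 9.20 and 9.62 in shSRA adipocytes, against 11.86, 11.67 and 11.84 in shControl adipocytes, a log2 fold change of -2.36 (SE 0.18, limma adjusted p = 5.58e-07). In ST2 adipocytes its probe set differed by 0.22 (limma adjusted p = 0.484), and it was designed for mouse Sra1 while the construct is human, so it does not check the overexpression. Control ST2 replicate 2 stood apart from the other arrays, with a median deviation of -0.43 from its group mean over 14314 bright probe sets, against -0.07 to 0.24 on the other 11 arrays, so fold changes that rest on control ST2 adipocytes are also given without it where it moved them across the test, changed their sign or moved them by over 1.5 times, and for C1ra, C1s1 and Masp1 throughout the SRA comparison. The highest of 9 adipocyte markers, Adipoq, Fabp4 and Lpl, had group means of at least 14.44 in both ST2 groups and varied too little to be tested. The lowest, Slc2a4, averaged 11.12 in SRA overexpressing and 10.04 in control ST2 adipocytes. Cd68 was the highest macrophage and blood marker, at 8.63 and 8.14 in the same groups. The mean of its list of 10 was 5.77 to 5.86 per array in SRA overexpressing and 5.69 to 5.82 in control ST2 adipocytes. The fibroblast marker Col3a1 averaged 13.40 in control ST2 adipocytes, while Dlk1, Thy1 and Dcn of the same list averaged 5.47, 5.37 and 6.56.

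SRA overexpression lowered 3 serine protease genes in ST2 adipocytes, C1ra and C1s1 of the classical pathway and Masp1 of the lectin pathway, to between 0.551 and 0.62 of their control level. No tested lead probe set was higher, Cfb did not pass the test, and the lead probe sets of C2, Serping1 and Cd55 were not tested. The lower genes are 3 of 7 members, and 5.65% of the 19068 probe sets tested were lower in this comparison and 2.33% were higher. The median log2 fold change was -0.25 over the 7 genes and 0.06 over all probe sets. Only 4 of the 7 lead probe sets, those of C1ra, C1s1, Masp1 and Cfb, varied enough over the arrays (variance above 0.05) to be tested.

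C1ra, one of the mouse genes for the C1r protease that activates C1s, read 8.85, 8.36 and 8.96 in SRA overexpressing ST2 adipocytes, against 9.86, 9.14 and 9.60 in control ST2 adipocytes. Every SRA overexpressing array lay below every control array. The log2 fold change was -0.81 (SE 0.19, 95% confidence interval -1.22 to -0.40), or 0.57 of the control level, with a limma adjusted p of 0.0113. It was -1.01 (adjusted p = 0.00162) without control replicate 2. Such bulk values cannot tell fewer cells making a transcript from less RNA per cell.

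C1s1, which encodes the C1s protease that cuts C4 and C2, read 8.14, 7.58 and 8.10 in SRA overexpressing ST2 adipocytes, against 9.07, 8.47 and 8.85 in control ST2 adipocytes. Here too the groups did not overlap, and replicate 2 was the lowest array of each group. The log2 fold change was -0.86 (SE 0.21, 95% confidence interval -1.29 to -0.43), or 0.551 of the control level (limma adjusted p = 0.0111), and -1.02 (adjusted p = 0.00481) without control replicate 2. The single probe set of C1s1 is of a kind that can match more than 1 transcript, and C1ra and C1s1 each have close copies in the mouse, so signal from a copy cannot be told apart from the named gene here.

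Masp1, a protease of the lectin pathway, read 8.94, 8.63 and 9.0 in SRA overexpressing ST2 adipocytes, against 9.50, 9.32 and 9.80 in control ST2 adipocytes. The groups did not overlap. The log2 fold change was -0.69 (SE 0.17, 95% confidence interval -1.05 to -0.33), or 0.62 of the control level (limma adjusted p = 0.0144), and -0.80 (adjusted p = 0.00356) without control replicate 2. Over all tested probe sets, 9.03% had every SRA overexpressing array below every control array, as these 3 proteases did.

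**Figure D1:**
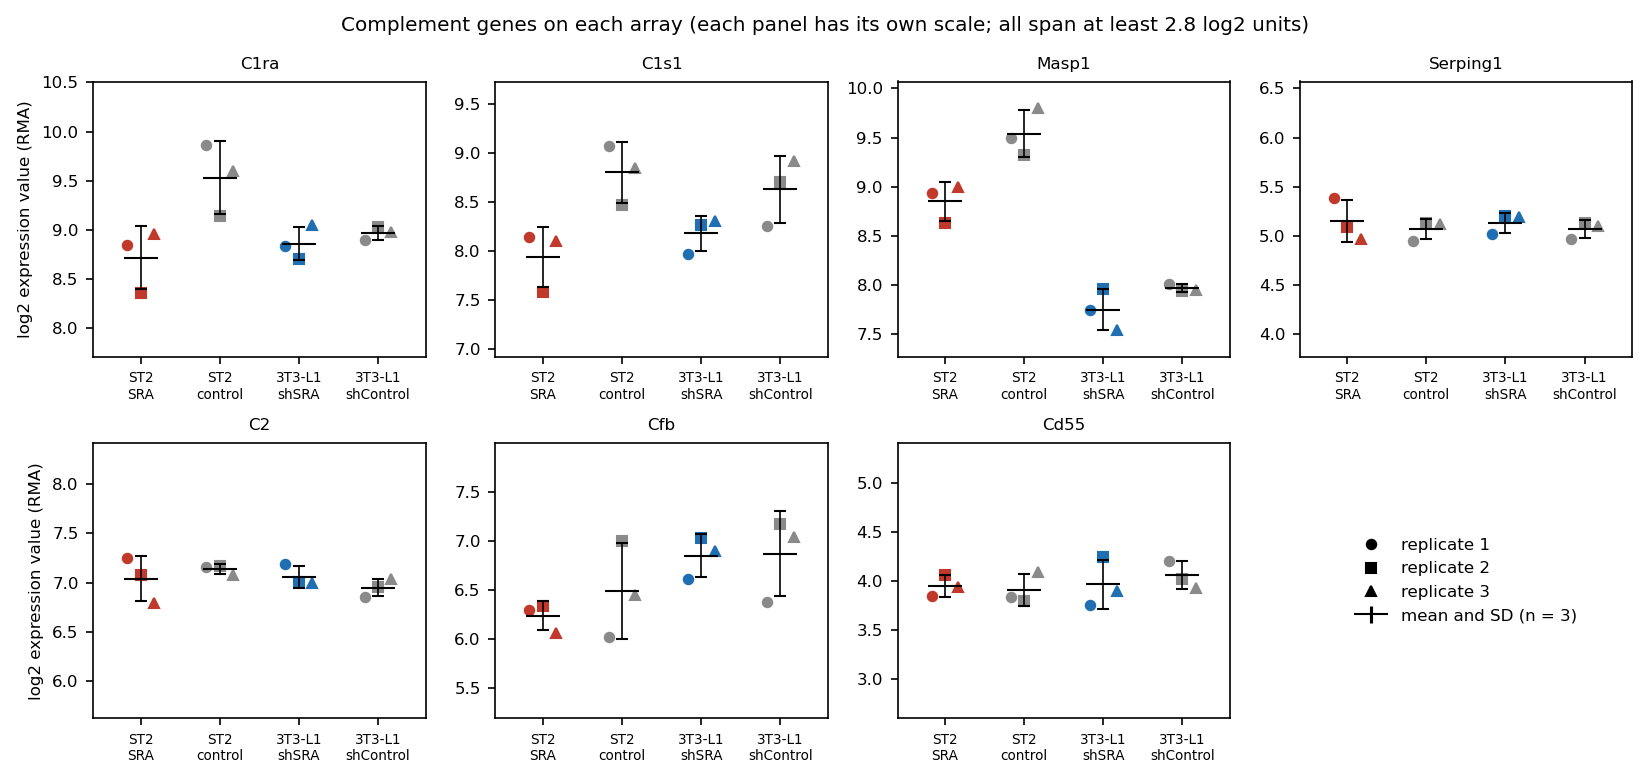
Log2 expression values of the lead probe set of each of the 7 genes on all 12 arrays, with the symbol shape giving the replicate number and black lines the mean and SD of 3 arrays. In C1ra, C1s1 and Masp1 the 3 SRA overexpressing ST2 arrays lie below the 3 control ST2 arrays, while for the other 4 genes these groups overlap.

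Masp1 has 5 probe sets, and 3 of them were tested. The second, 1425985_s_at, read 8.86, 8.50 and 9.06 in SRA overexpressing and 9.78, 9.29 and 9.96 in control ST2 adipocytes, a log2 fold change of -0.87 (SE 0.19, limma adjusted p = 0.00485). The third, 1438603_x_at, read 5.88, 5.67 and 5.92 against 6.11, 6.22 and 6.48 in the same groups, a log2 fold change of -0.45 that did not pass the test (SE 0.16, limma adjusted p = 0.10). The groups did not overlap on either. The other 2, 1419677_at and 1455346_at, were below the variance filter, with group means of 5.39 and 4.34 in SRA overexpressing and 5.57 and 4.29 in control ST2 adipocytes. The probe sets of Masp1 thus did not all show the difference, and MASP1 is known to be made in several spliced forms, which the annotation used here does not assign to probe sets.

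**Figure D2:**
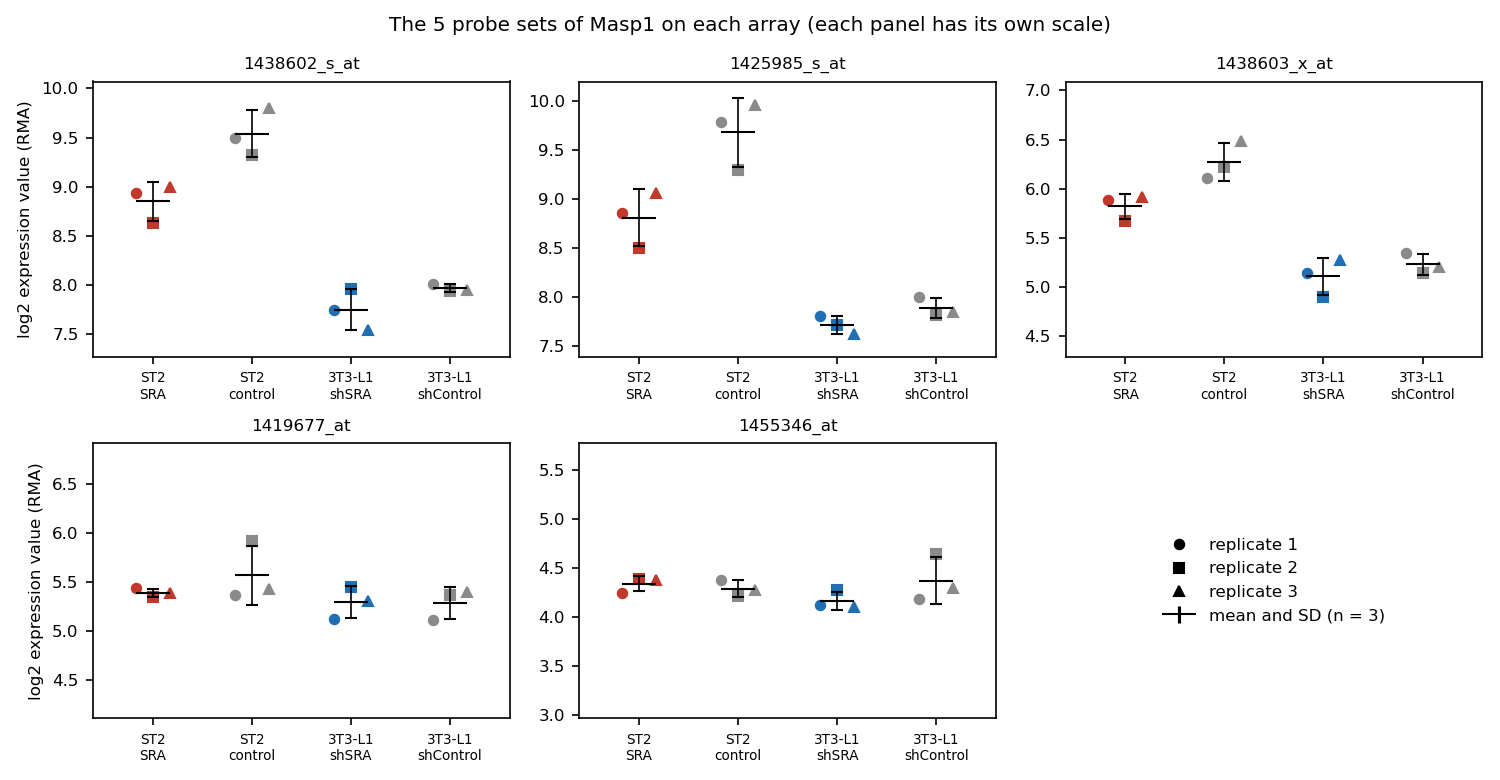
Log2 expression values of the 5 Masp1 probe sets on all 12 arrays, with the symbol shape giving the replicate number and black lines the mean and SD of 3 arrays. The 3 probe sets of the upper row are lower in SRA overexpressing than in control ST2 adipocytes and lower in both 3T3-L1 groups than in both ST2 groups, whereas the 2 of the lower row overlap between SRA overexpressing and control ST2 adipocytes.

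No tested probe set of the convertase proteases passed the test. Cfb read 6.30, 6.34 and 6.06 in SRA overexpressing ST2 adipocytes, against 6.02, 7.0 and 6.45 in control ST2 adipocytes, and the control arrays lay on both sides of the others. Its log2 fold change was -0.25 (SE 0.23, 95% confidence interval -0.73 to 0.23, limma adjusted p = 0.54), and 0.00 without control replicate 2. C2, which supplies the protease of the classical and lectin convertase, read 7.25, 7.08 and 6.79 in SRA overexpressing ST2 adipocytes, against 7.16, 7.17 and 7.08 in control ST2 adipocytes. Its lead probe set was below the variance filter, and a fit of all probe sets gave a log2 fold change of -0.10 (95% confidence interval -0.36 to 0.16). A second C2 probe set, 1416051_at, was tested and gave 0.02 (limma adjusted p = 0.965), and the third, 1457664_x_at, had means of 5.78 and 5.75 in the same groups.

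The regulators varied little over the arrays. Serping1, which encodes C1 inhibitor, read 5.39, 5.09 and 4.97 in SRA overexpressing ST2 adipocytes, against 4.95, 5.13 and 5.12 in control ST2 adipocytes, and over all 12 arrays it stayed between 4.95 and 5.39. A fit of all probe sets gave a log2 fold change of 0.09 (95% confidence interval -0.17 to 0.34). The lead probe set of Cd55 read 3.85, 4.06 and 3.94 in SRA overexpressing ST2 adipocytes, against 3.84, 3.80 and 4.09 in control ST2 adipocytes, and the same fit gave 0.04 (95% confidence interval -0.26 to 0.33), or -0.02 without control replicate 2. Of the other Cd55 probe sets, 1443906_at read 4.23, 4.26 and 3.90 in SRA overexpressing and 3.82, 3.73 and 3.82 in control ST2 adipocytes. Every SRA overexpressing array lay above every control array. How many probe sets of the array were separated in this direction was not counted, so this is not read as a rise. This probe set was below the variance filter, and the fit of all probe sets gave 0.34 (95% confidence interval 0.10 to 0.58, limma adjusted p = 0.138). The last Cd55 probe set, 1460242_at, averaged 3.67 and 3.68 in the same groups. The deposited values carry no detection call, so whether Serping1 or Cd55 lay above background was not tested, and a change in a gene below background would not be seen.

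**Figure D3:**
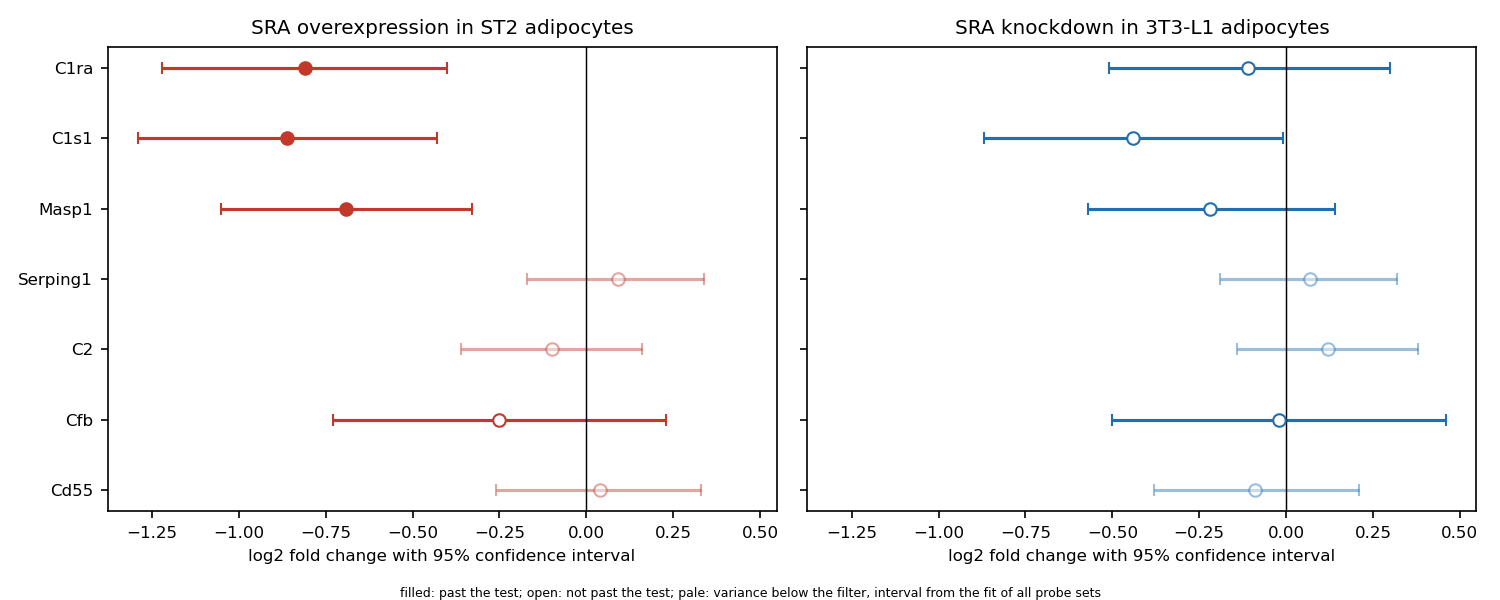
Log2 fold change with its 95% confidence interval for each of the 7 genes, at left for SRA overexpressing over control ST2 adipocytes and at right for shSRA over shControl 3T3-L1 adipocytes. The filled points of C1ra (-0.81), C1s1 (-0.86) and Masp1 (-0.69) passed the test with SRA overexpression, no gene passed it with knockdown, and pale points mark genes below the variance filter.

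SRA knockdown in 3T3-L1 adipocytes moved none of the 7 genes past the test. In this comparison 0.0734% of the probe sets tested passed, 14 in all, and 533 had an unadjusted p below 0.05. C1s1 came closest, with 7.97, 8.27 and 8.31 in shSRA adipocytes, against 8.26, 8.70 and 8.92 in shControl adipocytes. Each shSRA array lay below the shControl array of the same number, but the groups overlapped. The log2 fold change was -0.44 (SE 0.21, 95% confidence interval -0.87 to -0.01), with an unadjusted p of 0.0443 and a limma adjusted p of 1, so C1s1 was the 1 member of 7 below 0.05 before adjustment. It was lower, as with SRA overexpression. These tests do not pair the arrays by number. With the replicate number as a block C1s1 did not pass either (limma adjusted p = 0.339), and 101 probe sets passed.

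The other proteases differed by less. C1ra read 8.84, 8.70 and 9.05 in shSRA adipocytes, against 8.90, 9.03 and 8.98 in shControl adipocytes, a log2 fold change of -0.11 (95% confidence interval -0.51 to 0.30). Masp1 read 7.75, 7.96 and 7.54 in shSRA adipocytes, against 8.01, 7.94 and 7.95 in shControl adipocytes, a log2 fold change of -0.22 (95% confidence interval -0.57 to 0.14). Both had overlapping groups and a limma adjusted p of 1, and the intervals reached -0.51 and -0.57. With single arrays left out, the fold change spanned -0.20 to -0.02 for C1ra, the smallest without shSRA replicate 2 and the largest without shSRA replicate 3, and -0.32 to -0.11 for Masp1, the largest without shSRA replicate 2 and the smallest without shSRA replicate 3.

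Cfb read 6.61, 7.03 and 6.90 in shSRA adipocytes, against 6.38, 7.17 and 7.04 in shControl adipocytes, with a log2 fold change of -0.02 (95% confidence interval -0.50 to 0.46). In both 3T3-L1 groups replicate 1 was the lowest array for Cfb. C2 averaged 7.06 in shSRA and 6.95 in shControl adipocytes, Serping1 5.13 and 5.07, and Cd55 3.97 and 4.06. A fit of all probe sets gave log2 fold changes of 0.12 (95% confidence interval -0.14 to 0.38) for C2, 0.07 (-0.19 to 0.32) for Serping1 and -0.09 (-0.38 to 0.21) for Cd55.

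Whether the response to SRA overexpression differed from the response to knockdown was tested directly. None of the 7 genes passed, and 2.32% of the probe sets tested did. The response in ST2 minus the response in 3T3-L1 adipocytes was -0.71 for C1ra (SE 0.28, limma adjusted p = 0.281), -0.42 for C1s1 (adjusted p = 0.67) and -0.47 for Masp1 (adjusted p = 0.48). For C1s1 it was only -0.24 without SRA overexpressing ST2 replicate 2 or without shControl replicate 1, and -0.28 without control ST2 replicate 1. For C1ra the value without control ST2 replicate 2 was -0.90 and passed (adjusted p = 0.0378), and it also passed with the replicate number as a block (adjusted p = 0.049). In those 2 fits 5.4% and 5.32% of the probe sets tested passed for the difference. The falls were therefore not shown to be particular to the ST2 comparison, in which the line, the day and the direction of the SRA change differ from the other.

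Masp1 was the member whose level differed most between the lines. Its mean was 9.54 ± 0.24 in control ST2 and 7.97 ± 0.04 in shControl 3T3-L1 adipocytes (SD, n = 3 each), a log2 fold change of 1.58 (SE 0.17, limma adjusted p = 1.98e-07), or 2.98-fold. The order of its group means was control ST2, SRA overexpressing ST2, shControl and shSRA 3T3-L1, and the ranges of the last 2 overlapped while those of the other neighbours did not. Its other tested probe sets gave 1.78 (adjusted p = 1.16e-07) and 1.04 (adjusted p = 2.03e-05). These values stand in a comparison in which 63.6% of the probe sets tested passed, and line, strain, day and vector differed together and cannot be told apart.

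C1ra was also higher in control ST2 than in shControl 3T3-L1 adipocytes, by a log2 fold change of 0.56 (SE 0.19, limma adjusted p = 0.0172), or 1.48-fold. Without control ST2 replicate 1 it was 0.40 and did not pass (adjusted p = 0.0845). Its lowest group was SRA overexpressing ST2 adipocytes, at 8.72 ± 0.32, and the only neighbours in the order of its group means that did not overlap were control ST2 and shControl 3T3-L1. For C1s1 the difference between the control lines was 0.17 (adjusted p = 0.453) and for Cfb it was -0.38 (adjusted p = 0.152), and no neighbouring groups were separate. The C1s1 difference was 0.34 without control ST2 replicate 2 and -0.01 without shControl replicate 1, and passed in neither. The Cfb difference passed once replicate number was a block (adjusted p = 0.0433), without control ST2 replicate 2 (-0.63, adjusted p = 0.0223) and without shControl replicate 1 (-0.62, adjusted p = 0.0285), and was -0.14 without control ST2 replicate 1 and -0.22 without shControl replicate 2. The group means of Serping1, C2 and Cd55 spanned 0.09, 0.19 and 0.14, again with all neighbours overlapping.

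After the mean of each line was subtracted, the 3 proteases followed each other over the 12 arrays. Pearson's r was 0.88 for C1ra and C1s1, 0.80 for C1s1 and Masp1 and 0.79 for C1ra and Masp1, while Cfb gave -0.06 to 0.21 with them. These are descriptions over arrays that hold the group differences above and share any array effect. By the same measure, over 8189 genes, the genes most like C1ra were Pcolce (0.98), Dlg5 (0.97) and Reep3 (0.96), and those most like C1s1 were Reck, Ltbp2 and Maf (0.96 each). Most like Masp1 were Eya1, Bcat1 and Creb3l1 (0.96 each), and most like Cfb were Igfals (0.98), Nsun7 (0.96) and 1700120C14Rik (0.95).

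The calls in ST2 adipocytes rested on few arrays. Without SRA overexpressing replicate 2, the lowest array for all 3 proteases in that group, C1ra gave -0.63 (adjusted p = 0.112), C1s1 -0.68 (adjusted p = 0.104) and Masp1 -0.58 (adjusted p = 0.12), so that 0 of the 3 passed. Masp1 was also lost without control replicate 3, at -0.56 (adjusted p = 0.0777). With any other single array left out, all 3 passed, and their fold changes stayed below 0 throughout.

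**Figure D4:**
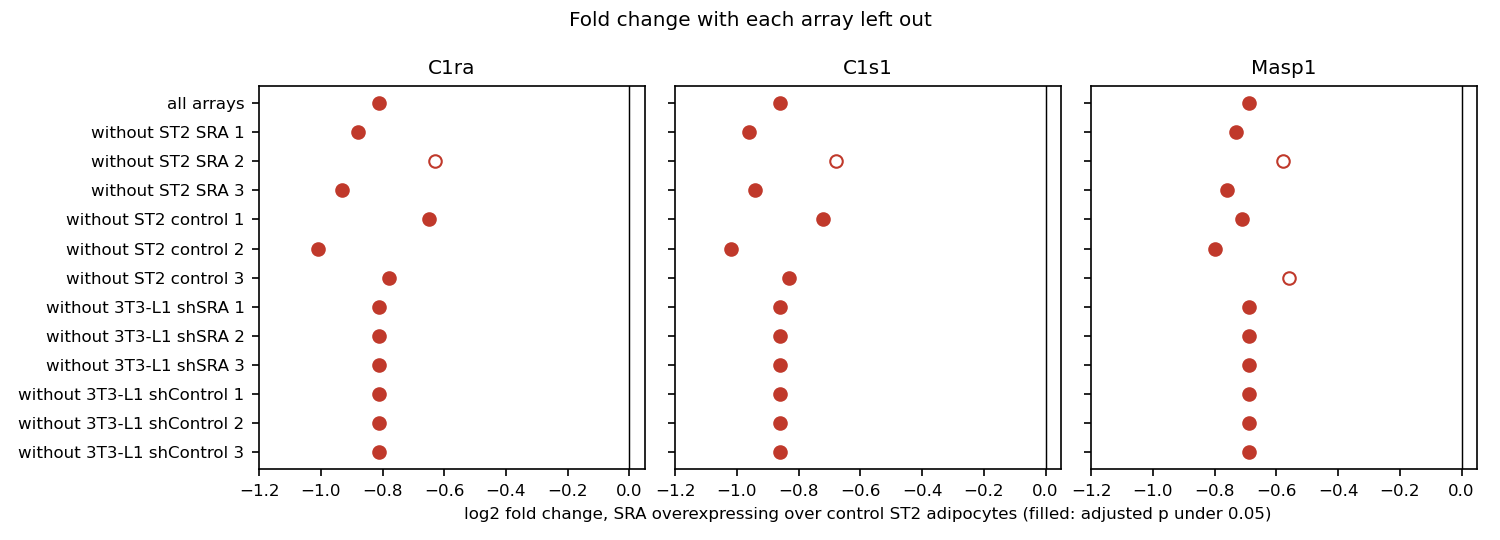
Log2 fold change of C1ra, C1s1 and Masp1 between SRA overexpressing and control ST2 adipocytes with all arrays and with each of the 12 arrays left out in turn, filled where the limma adjusted p was under 0.05. Open points appear without SRA overexpressing replicate 2 for all 3 genes and without control replicate 3 for Masp1, and all points lie below 0.

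Of 47 other complement genes listed, 36 had a probe set of their own, and 9 of these varied enough to be tested. SRA overexpression lowered 2 of the 9 and raised none, beside 5.65% lower and 2.33% higher over all probe sets tested. Itgb2, the beta chain of complement receptors 3 and 4 on leukocytes, averaged 5.80 ± 0.19 in SRA overexpressing and 6.88 ± 0.29 in control ST2 adipocytes (SD, n = 3 each), a log2 fold change of -1.09 (limma adjusted p = 0.000462). Colec12, a membrane collectin that acts as a scavenger receptor, averaged 8.71 ± 0.25 and 9.74 ± 0.34 in the same groups, a log2 fold change of -1.03 (limma adjusted p = 0.00133). The median over the 36 genes was 0.00, against 0.06 over all probe sets. Masp2, another protease of the lectin pathway, was not tested and averaged 6.65 ± 0.10 in SRA overexpressing and 6.45 ± 0.16 in control ST2 adipocytes. Knockdown moved 0 of the 9 tested genes past the limma test, beside 0.0734% of all probe sets tested. At an unadjusted p below 0.05 the count was also 0, and over all 19068 probe sets tested it was 533.

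Between the control lines, 3 of the 9 tested genes were higher in ST2 and 4 were lower. Over all probe sets tested, 63.6% passed in this comparison, and line, strain, day and vector cannot be told apart. Higher in control ST2 were Colec12 (log2 fold change 2.00), Itgb2 (0.87) and the membrane regulator Cr1l (0.38). Lower in control ST2 were C8g, the gamma chain of the terminal component C8 (-1.42), the soluble regulator Clu (-0.81, or -1.22 without control ST2 replicate 2), Cd59a, which blocks the membrane attack complex (-0.79), and properdin, Cfp, which stabilises the alternative convertase (-0.44). Each passed the limma test at an adjusted p of at most 0.0434.

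Of the genes that act upstream of complement transcription, 13 of the 15 listed could be read and 6 were tested. SRA overexpression lowered 1 of them and raised none. Without control ST2 replicate 2 it lowered 2, in a fit where 1874 of 19068 probe sets were lower, against 1077 with all arrays. Knockdown moved 0 of the 6, beside 0.0734% of all probe sets tested. The 1 lowered with all arrays was Cebpd, a C/EBP factor that IL-6 induces. It averaged 8.42 ± 0.13 in SRA overexpressing and 9.90 ± 0.14 in control ST2 adipocytes (SD, n = 3 each), a log2 fold change of -1.48 (limma adjusted p = 3.33e-05). The median of the list was 0.01 in ST2 adipocytes, where 5.65% of all probe sets tested were lower.

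Some markers of preadipocytes and fibroblasts also fell with SRA overexpression, and others did not. Lowered were 4 of 7, the growth factor receptors Pdgfra (-1.25) and Pdgfrb (-0.90) and the collagens Col1a1 (-1.47) and Col3a1 (-1.95). The other 3, Dlk1 (0.17), Thy1 (-0.02) and Dcn (-0.20), did not pass, and they averaged 5.47, 5.37 and 6.56 in control ST2 adipocytes. Over all probe sets tested, 5.65% were lower and 2.33% were higher. Col3a1 averaged 11.45 ± 0.28 in SRA overexpressing and 13.40 ± 0.28 in control ST2 adipocytes (limma adjusted p = 8.69e-07). The list's median log2 fold change was -0.90, and its mean level per array was 8.10 to 8.42 in SRA overexpressing and 9.0 to 9.13 in control ST2 adipocytes. Of 9 adipocyte markers, of which 6 were tested, Cd36 (0.86) and Slc2a4 (1.08) were higher and none was lower. Without control ST2 replicate 1, 4 were higher and none was lower. That fit called 1823 of the 19068 probe sets tested, 847 of them lower, against 1522 and 1077 with all arrays. The adipocyte list's mean level was 13.08 to 13.20 in SRA overexpressing and 12.47 to 12.95 in control ST2 adipocytes. Of the other lists only 2 of 10 macrophage and blood markers, 1 of 5 hepatocyte markers and 0 of 7 endothelial markers varied enough to be tested, and none of these 3 passed in either SRA comparison. In 3T3-L1 adipocytes no tested marker of the 5 lists passed with knockdown, beside 0.0734% of all probe sets tested. The fibroblast list's mean level was 11.05 to 11.24 in shSRA and 11.27 to 11.61 in shControl adipocytes. The part of these marker changes in the falls of C1ra, C1s1 and Masp1 was not tested.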

How the data were processed

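Total RNA from ST2 and 3T3-L1 adipocytes was hybridised to 12 arrays, 3 in each of 4 groups. The deposited log2 values are the output of robust multi-array average (RMA), run by the authors, and the submitters' processing notes name affy and limma beside it. RMA corrects background, sets all arrays to one distribution and summarises the probes of a probe set. Versions: not given in the sources used here. Arrays have no read depth, and 3 per group limit the precision.

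Probe sets were named from the platform annotation, in which 34958 had 1 symbol, 932 several and 9211 none. Those whose variance across the 12 arrays exceeded 0.05 were tested, 19068 of 45101. As in the study's methods, 1 linear model of the 4 groups was fitted with limma 3.58.1 in R 4.3.3, with moderated statistics and Benjamini-Hochberg adjustment over all tested probe sets for each comparison. The methods also describe testing one comparison given the other. Here each was tested alone, and limma's nested F classification was an alternative, which called 1008 probe sets with overexpression and 90 with knockdown. A gene was called at an adjusted p under 0.05. A fold change and confidence interval of a probe set below the filter come from the same model fitted to all probe sets. The scripts were tested on simulated data.

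The named genes are the 7 members, up to 4 genes higher and 4 lower of the other complement list in each comparison, Sra1, the 3 genes most correlated with each tested member and the highest marker of a list. Others with counts of 5 or fewer were named after their values were seen. The members and lists were chosen with earlier results of these data known. Promoter sequences are from RefSeq (GRCm38.p6). Other complement genes without a probe set of their own were not analysed here.

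Alternatives were the replicate number as a block, other filters, scalings, moderation, weights, probe set rules and single arrays left out, and gene list counts and named list genes without single arrays, the last of these chosen after seeing the data. The titles give the groups of a line the same replicate numbers. In 3T3-L1 adipocytes same-numbered arrays deviated together (r of 0.38 to 0.59), and the numbers were taken to pair the arrays. The main tests hold no term for this pairing, and only the replicate block does. No 2 arrays of a group were alike enough to be 1 sample.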

Additional observations from a re-analysis of the deposited data

Results flagged for a closer look

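The response to SRA overexpression in ST2 adipocytes minus the response to knockdown in 3T3-L1 adipocytes passed the limma test for Sra1 and 5 genes of the lists, none of them one of the 7 complement genes. The 2 manipulations are a gain and a loss in different lines and on different days. The difference was -1.13 for Colec12 (SE 0.27, adjusted p = 0.0279), where the fold change was -1.03 with overexpression and 0.10 with knockdown. It was -1.10 for Itgb2 (SE 0.25, adjusted p = 0.023), with fold changes of -1.09 and 0.01. For Cebpd it was -1.85 (SE 0.27, adjusted p = 0.000445), with fold changes of -1.48 and 0.37. For the fibroblast marker Col3a1 it was -1.85 (SE 0.25, adjusted p = 0.000253), with fold changes of -1.95 and -0.10, and for the adipocyte marker Slc2a4 it was 1.05 (SE 0.23, adjusted p = 0.0142), with fold changes of 1.08 and 0.03. For Sra1 it was 2.58 (SE 0.25, adjusted p = 2.38e-05), which holds the knockdown itself. All are log2 values.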

How the results depend on the processing

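The fold changes of C1ra, C1s1 and Masp1 between SRA overexpressing and control ST2 adipocytes kept their direction under all 23 alternatives, at -1.01 to -0.63, -1.02 to -0.68 and -0.94 to -0.43. With single arrays left out, the count of lower complement genes ranged over 0 to 3, and Masp1 was also lost when each line was fitted on its own (adjusted p = 0.0553). The count that differed between the SRA responses, 0 as reported, was 1 with the replicate block (C1ra, adjusted p = 0.049), 2 with array weights (C1ra, adjusted p = 0.0115, and Masp1, adjusted p = 0.00359), and 0 to 1 with single arrays left out. The count that differed between the control lines, 2 as reported, was 3 with the block and with array weights (with Cfb at -0.60, adjusted p = 0.000267) and ranged over 1 to 3 with single arrays left out. In ST2 adipocytes same-numbered arrays correlated at 0.04 to 0.53 and differently numbered arrays at -0.44 to 0.21. Whether the ST2 arrays of a number share more than the number was not tested. The block moved the probe sets called from 1522 to 3023 with overexpression, from 14 to 101 with knockdown and from 442 to 1015 for the difference, made Cfb differ between the control lines (-0.38, adjusted p = 0.0433) and, beside C1ra above, changed no other call of the 4 tested members. Cfb gave 0.00 with overexpression and 0.02 for the difference without control ST2 replicate 2, and 0.01 for the difference without shControl replicate 1. With knockdown it gave 0.10 without shSRA replicate 1, 0.13 without shControl replicate 2 and 0.07 without shControl replicate 3. With single arrays left out, Cfb spanned -0.49 to 0.00 with overexpression, -0.26 to 0.13 with knockdown and -0.47 to 0.02 for the difference, and C1s1 spanned -0.01 to 0.34 between the control lines, the lowest without shControl replicate 1. The cause of these changes was not tested. Over the alternatives that test single probe sets, those called ranged from 749 to 7327 with overexpression, 4 to 101 with knockdown, 237 to 3154 for the difference and 9335 to 14920 between the control lines, with the upper end from the replicate block for knockdown and from array weights for the others.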
